A study of Homo sapiens with 8 samples.

Results

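The genes described here carry out the incision, protein coating and sealing steps of excision repair: *XPA*, *ERCC1*, *ERCC4*, *ERCC5*, *RPA1*, *RPA2*, *RPA3*, *LIG1*, *LIG3* and *XRCC1*. They were chosen by name, and each was taken as its transcript with the largest span. All 10 were found among the 19351 gene names of the deposited tables, and all 10 were among the 17782 genes with enough reads to be tested.

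The assay was GRO-seq: nuclei are isolated, polymerases already on a gene lengthen their RNA for a few minutes with a tagged nucleotide, and the tagged RNA is sequenced. The cells were MRC5_VA (MRC5 in the labels), a line of human fetal lung fibroblasts immortalized with SV40, either wild type (WT) or carrying a lentiviral shRNA knockdown (KD) of the long noncoding RNA *ZFAS1*. All cells were first held for 3.5 h in 100 µM DRB, which holds polymerases back at the starts of genes, and were then left without UV or given 10 J/m2 of UV-C once the DRB medium had been taken off. Nuclei were taken 10 or 40 min after DRB removal for a run-on of 5 min. The 8 libraries were WT without UV, WT with UV, KD without UV and KD with UV, each at both times, with 1 library per condition and no repeat.

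Nucleotide excision repair removes the bulky lesions that UV leaves in DNA. After a lesion is found, the helicases of TFIIH open the strands, XPA and the RPA trimer check the lesion and hold the opened DNA, and a pair of nucleases cuts the damaged strand on either side. DNA polymerases fill the gap, with PCNA as the clamp, and a ligase seals the nick. In quiescent human cells LIG3 with its scaffold XRCC1 is known to do much of the sealing, and LIG1 does it in dividing cells. LIG3 and XRCC1 also act in the repair of single-strand breaks.

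The sequences just before a RefSeq start are shown for *ERCC1*, *XPA*, *RPA1* and *XRCC1*. They were chosen because the first 3 had a higher KD to WT ratio with UV than without at both times. *XRCC1* had the largest gap in the other direction. The runs of *ERCC1* and *XRCC1* lie wholly inside the spans counted here. The 5′ ends of those spans are 837 and 479 bases upstream of the RefSeq starts used. Sequences are from RefSeq (GRCh38.p14), 5′ to 3′ on the gene's strand, cut so that no GENCODE v44 exon lies in them. Capitals mark a CCAAT box (CCAAT or ATTGG) or a GC box (GGGCGG or CCGCCC). The runs lie at chr19:45423606-45423755 (minus strand), chr9:97697341-97697490 (minus strand), chr17:1829903-1829970 (plus strand) and chr19:43575619-43575768 (minus strand), in that order.
ERCC1: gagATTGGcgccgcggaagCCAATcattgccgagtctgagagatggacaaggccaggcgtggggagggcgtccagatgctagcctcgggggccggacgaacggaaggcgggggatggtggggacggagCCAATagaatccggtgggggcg
XPA: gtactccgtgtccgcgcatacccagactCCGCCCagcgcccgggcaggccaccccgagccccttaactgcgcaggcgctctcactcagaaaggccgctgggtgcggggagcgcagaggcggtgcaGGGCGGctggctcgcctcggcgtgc
RPA1: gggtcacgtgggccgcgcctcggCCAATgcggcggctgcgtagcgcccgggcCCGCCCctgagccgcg
XRCC1: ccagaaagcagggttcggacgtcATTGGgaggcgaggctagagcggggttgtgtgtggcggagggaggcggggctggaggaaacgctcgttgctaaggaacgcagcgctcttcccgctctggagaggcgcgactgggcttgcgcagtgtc

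In the full 250 bases before the RefSeq start, the window of *ERCC1* entry 1, from which the run was taken, held 3 CCAAT boxes and 2 GC boxes. *ERCC1* has 3 entries, and the windows of entries 2 and 3 held 0 of either box. Entry 2 starts 448 bases from the 5′ end of the counted transcript, nearer than entry 1 at 837. The *RPA1* window held 1 CCAAT box and 3 GC boxes, that of *XRCC1* 1 of each, and that of *XPA* 2 GC boxes. Of 35116 promoter windows of this length, 42.6% held a GC box and 32.0% a CCAAT box, so both are common letters near gene starts. The ETS core CCGGAA, the CRE TGACGTCA and the TATA box TATAAA were also searched on both strands, and of these the windows of the 8 members with an entry held only the ETS core, once, before *RPA1*. Of all windows, 14.5% held the ETS core, 1.65% the CRE and 10.7% the TATA box. In the runs shown no matches overlap. No entry was found for *RPA2* and *RPA3*.

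Libraries held 10.2 to 21.1 M reads. Nascent reads of *ZFAS1*, the RNA targeted by the knockdown, did not fall with the KD label. Without UV at 10 min it had 507 CPM in the WT library and 705 CPM in the library labelled KD. The latter was higher in 3 of 4 matched pairs. The paper reports lower *ZFAS1* by RT-PCR in knockdown MRC5_VA cells. Nascent reads do not measure the standing amount of an RNA, so they cannot tell whether the knockdown worked here. KD is therefore used below as a label only. The tables come in 2 orders of transcripts, one shared by WT without UV and KD with UV and the other by WT with UV and KD without UV, and the meaning of the orders was not stated. The summed level of 8 fibroblast markers was 38.1 to 172 CPM per kb, against at most 7.74 for the 5 epithelial, 3.13 for the 5 endothelial and 2.17 for the 5 immune markers. It was lowest in KD without UV, at 38.1 and 45.5, and 77.1 to 172 elsewhere. Against the background described next, all 8 fibroblast markers had medians above it (2.85 to 574 times). So had 11 of the 15 markers of other cell types, and the highest of the epithelial, immune and endothelial lists were *KRT18* at 59.7, *CD68* at 11.7 and *VWF* at 9.20 times. The other 4, *PTPRC*, *CD3E*, *LYZ* and *PECAM1*, had medians below it, and *LYZ* was at 0 in at least 1 library. A lower level can mean fewer cells that make an RNA or less RNA per cell, which cannot be told apart here.

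Levels are given in CPM, the read count scaled to the size of the library with TMM factors, and as CPM per kb of span when genes are compared. Reads cover introns as well as exons. *XRCC1* stood highest in all 8 libraries, with a median of 8.12 CPM per kb, and the next gene, *ERCC5*, had 1.72. The *ERCC5* span runs through the gene *BIVM*, and its 31.2 kb outside *BIVM* read only 0.876 to 1.32 CPM per kb. *RPA1* followed at 1.48, *ERCC4* at 1.35, *LIG3* at 1.24, *ERCC1* at 1.23, *RPA2* at 0.857, *LIG1* at 0.737, *RPA3* at 0.698 and *XPA* at 0.559. Below *XRCC1* no neighbours in this order were separated, since each gene exceeded the next in only 4 to 6 of 8 libraries. As a background, 101 genes of 7 families picked as tissue-restricted (GABR, GRIK, GRIN, CYP2, CYP3A, UGT2 and DEFB) had a median of 0.0368 to 0.12 CPM per kb. Whether each of these genes is silent in these cells was not tested. *XRCC1* lay 60.4 to 231 times above that background and *XPA* 2.75 to 28.6 times, the lowest end of the group.

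**Figure D1:**
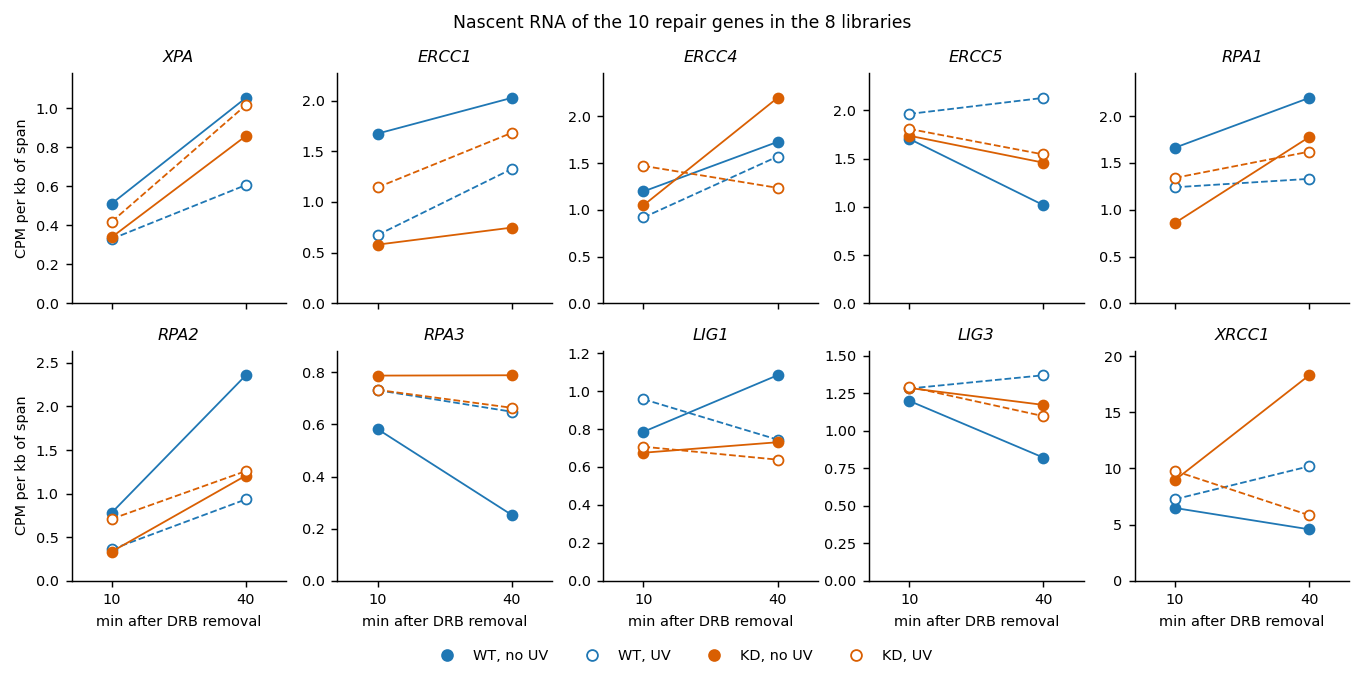
Level of each gene (CPM per kb of span, each panel from 0) at 10 and 40 min after DRB removal, 1 point per library; blue is WT, orange KD, filled points without UV and open points with UV. *XPA* and *RPA2* are higher at 40 than at 10 min in every line, and *ERCC1* is lowest in KD without UV at both times.

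XPA, which binds the opened DNA and holds the repair complex together, lies on chromosome 9 (97674909 to 97697357, minus strand, hg38). *XPA* read 11.5 CPM at 10 min and 23.7 CPM at 40 min in WT without UV. It read 7.42 and 13.6 CPM in WT with UV, 7.62 and 19.3 CPM in KD without UV, and 9.40 and 22.8 CPM in KD with UV. Each 40 min library stood above each 10 min library, from only 84 to 483 reads.

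RPA coats the undamaged strand as a trimer of RPA1, RPA2 and RPA3. *RPA1*, the large subunit that contacts DNA (chromosome 17, 1829984 to 1899554, plus strand), read 116, 153, 86.3 and 92.6 CPM in WT (without UV at 10 and 40 min, then with UV at 10 and 40 min) and 59.8, 124, 93.3 and 113 CPM in the KD libraries in the same order. It was highest in WT without UV at 40 min and lowest in KD without UV at 10 min. *RPA2*, the subunit phosphorylated after damage (chromosome 1, 27891524 to 27914575, minus strand), read 18.01, 54.4, 8.30 and 21.5 CPM in the WT libraries and 7.70, 27.8, 16.4 and 29.0 CPM in the KD libraries, in the same order. Its highest library was 7.06 times its lowest, the widest range of the 10 genes, and again the top library was WT without UV at 40 min. *RPA3*, the smallest subunit (chromosome 7, 7636518 to 7718607, minus strand), read 47.8, 20.8, 60.1 and 53.3 CPM in the WT libraries and 64.7, 64.8, 60.2 and 54.5 CPM in the KD libraries. The 3 subunits of one trimer therefore did not share a profile, for *RPA3* was lowest in the library where *RPA1* and *RPA2* were highest. *RPA3* spans 82.1 kb, and in GENCODE v44 94.9% of it lies opposite *UMAD1*. Counting kept strands apart in these tables: of genes lying inside a gene on the same strand none of 417 held more reads than the outer gene, whereas 37 of 443 on the opposite strand did.

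ERCC1 and ERCC4 (XPF) form the nuclease that cuts 5′ of the lesion, and ERCC5 (XPG) cuts 3′ of it. *ERCC1* (chromosome 19, 45407333 to 45424365, minus strand) read 28.5, 34.5, 11.5 and 22.6 CPM in the WT libraries and 9.87, 12.7, 19.5 and 28.6 CPM in the KD libraries. Its 2 lowest libraries at 40 min and at 10 min were those of WT with UV and KD without UV. *ERCC4* (chromosome 16, 13920157 to 13952345, plus strand) read 38.5, 55.6, 29.6 and 50.6 CPM in the WT libraries and 33.8, 70.8, 47.4 and 39.8 CPM in the KD libraries. *ERCC4* did not follow its partner, since it was highest in KD without UV at 40 min, where *ERCC1* was at 12.7 CPM. *ERCC5* (chromosome 13, 102807146 to 102876001, plus strand) read 117, 70.1, 135 and 147 CPM in the WT libraries and 119.5, 100.3, 124 and 106 CPM in the KD libraries. Of this span 49.9% lies in *BIVM* on the same strand, because the longest transcript is a readthrough of both genes, so many of these reads cannot be assigned to *ERCC5*.

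*LIG1*, the replicative ligase (chromosome 19, 48115445 to 48170344, minus strand), read 43.1, 59.5, 52.6 and 40.9 CPM in the WT libraries and 37.1, 40.1, 38.8 and 35.1 CPM in the KD libraries. *LIG3* (chromosome 17, 34980494 to 35009743, plus strand) read 35.0, 24.0, 37.5 and 40.0 CPM in the WT libraries and 37.5, 34.3, 37.8 and 32.1 CPM in the KD libraries, with WT without UV at 40 min lowest. Both ligases varied little, with the highest library 1.70 and 1.67 times the lowest. *XRCC1* (chromosome 19, 43543040 to 43576006, minus strand) read 214, 151, 239 and 336 CPM in the WT libraries and 296, 603, 322 and 192 CPM in the KD libraries. It ranked the WT libraries in the same order as its partner *LIG3*. KD without UV at 40 min stood far above the others, which *LIG3* did not show. GENCODE v44 places another gene model on the same strand over 64.7% of the *XRCC1* span.

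Whether the KD to WT ratio changed when cells had received UV was tested with a KD by UV term. *ERCC1* and *RPA2* had positive terms that passed, so 2 of 10 members were called, where 10.3% of all genes tested were. For *ERCC1* the log2 ratio of KD over WT was −1.53 at 10 min and −1.44 at 40 min without UV, and 0.76 and 0.34 with UV. The term was 2.02 ± 0.45 (SE, edgeR quasi-likelihood test with Benjamini-Hochberg adjustment, adjusted p = 0.0393). For *RPA2* the unirradiated pairs gave −1.23 and −0.97 and the irradiated pairs 0.98 and 0.43, with a term of 1.80 ± 0.47 (edgeR adjusted p = 0.0411). Counting intervals of both genes lay below 0 in both pairs without UV and above 0 in both pairs with UV. The KD by UV term has the same sign pattern as the 2 table orders, so these cannot be told apart. KD and WT also differ in table order within each UV state, and UV and no UV differ in it within each cell. Those comparisons, given below, cannot be told apart from the orders either.

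Without UV alone, *ERCC1* fell by 1.49 ± 0.32 on the log2 scale in KD against WT (SE, edgeR adjusted p = 0.0335), which is 2.80-fold lower. *RPA2* fell by 1.08 ± 0.33 (edgeR adjusted p = 0.0476), 2.11-fold lower. These were 2 of 10 members called, both lower, beside 13.3% of all genes tested, of which 6.3% were lower and 6.97% higher. At an unadjusted p under 0.05 were 4 of 10 members and 36.7% of all genes. *XRCC1* at 1.29 ± 0.43 and *RPA3* at 0.99 ± 0.35 did not pass (edgeR adjusted p = 0.0575 and 0.0668), but DESeq2, which called 28.2% of all genes, called both as higher, and *ERCC1* and *RPA2* as lower. The call of *RPA2* was lost with the smallest transcript of each gene (−0.86) and with TMM on genes of 1 to 10 kb (−0.96). In both *RPA3* was called higher, in fits that called 23.9 and 24.4% of all genes. With UV, no member passed (0.129% of all genes called, 0 members by DESeq2 or limma-voom), and 1 member was at an unadjusted p under 0.05, as were 4.32% of all genes. There *ERCC1* stood at 0.53 ± 0.31 and *RPA2* at 0.72 ± 0.33. The summed fibroblast markers were also lowest in KD without UV, where 4 of 8 (*COL1A1*, *COL3A1*, *VIM* and *FN1*) were called lower, beside 6.3% of all genes. The fibroblast markers *COL1A2*, *PDGFRB*, *THY1* and *S100A4* were not called. Of these, *PDGFRB* was higher in KD than in WT without UV, at 112 against 88.2 CPM at 10 min and 144 against 42.8 CPM at 40 min. *COL1A2* was at 88.0 against 102 CPM, then 115 against 43.0 CPM. Of the markers of other cell types, *EPCAM* at 1.81 and *TEK* at 1.57 were called higher in KD without UV and *KRT18* at −1.70 and *CD68* at −2.17 lower. The part of these cell type markers in the result was not tested.

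The ratio of active genes (the median of those above the upper quartile) to the background families was 24.5 and 67.3 in WT without UV, 14.2 and 22.3 in WT with UV, 13.5 and 26.6 in KD without UV and 24.7 and 36.8 in KD with UV, at 10 and 40 min. At each time it was thus higher in WT without UV and KD with UV than in the other conditions, as *ERCC1* and *RPA2* were. Within these sets the orders did not always match. Subtracting the background reads from each gene left terms of 1.92 ± 0.52 for *ERCC1* and 1.87 ± 0.55 for *RPA2*, of similar size, but neither passed (edgeR adjusted p = 0.102 for both), and the share of all genes called was then 0.0681%. Both calls ended when any of the KD libraries was left out, and so did nearly all calls over all genes. Such a fit keeps only the other time of that cell and UV condition. The *ERCC1* term was then 2.14 without KD no UV 10 min, 1.78 without KD no UV 40 min, 2.03 when KD UV 10 min and 2.01 when KD UV 40 min was removed. The *RPA2* term was 1.53, 2.03, 1.40 and 2.18 without the same libraries in turn. Without KD no UV 10 min or KD no UV 40 min the changes in KD over WT without UV did not pass either, where almost no gene did. They were −1.61 and −1.32 for *ERCC1* and −0.82 and −1.38 for *RPA2*. That call of *RPA2* was also lost without WT no UV 40 min (−0.93), KD UV 10 min (−1.09) or KD UV 40 min (−1.09). Fewer of all genes were called there than in the full fit.

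**Figure D2:**
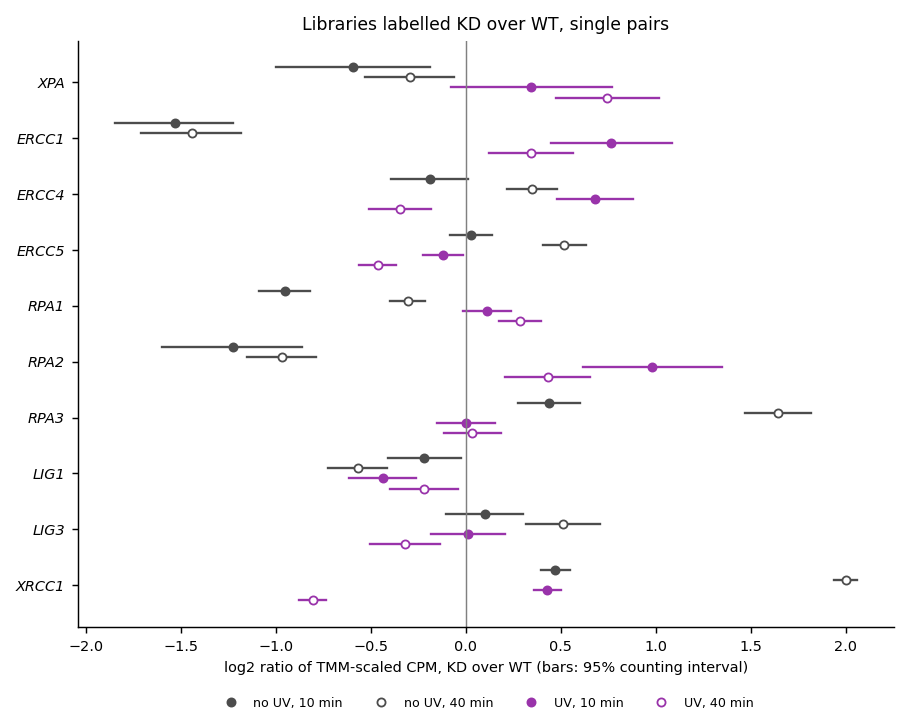
Log2 ratio of KD over WT for each gene in the 4 matched pairs of libraries (points, with bars for the 95% counting interval); grey is without UV, purple with UV, filled at 10 min and open at 40 min. *ERCC1* and *RPA2* lie below 0 without UV and above 0 with UV, and *XRCC1* spans −0.80 to 1.999.

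The other members were not called in the KD by UV term by edgeR. At an unadjusted p under 0.05 were 4 of 10 members and 39.1% of all genes. *XPA* had the same sign pattern as *ERCC1*, with KD over WT at −0.59 and −0.30 without UV and 0.34 and 0.74 with UV (term 0.98 ± 0.45, edgeR adjusted p = 0.121). For *RPA1* the term was 0.79 ± 0.47 and for *ERCC4* 0.11 ± 0.49. *XRCC1* had the most negative term, −1.43 ± 0.61 (edgeR adjusted p = 0.102), which was called by DESeq2 (−1.46, with 28.3% of all genes called) and with library totals (−1.61, with 16.4%). It came from 1 time: its KD to WT log2 ratio was 0.47 without and 0.43 with UV at 10 min, but 1.999 and −0.80 at 40 min. *RPA3* behaved similarly, with ratios of 0.44 and 0.00 at 10 min and 1.64 and 0.03 at 40 min. *ERCC5* had a term of −0.56 ± 0.46, which turned to 0.26 ± 0.42 when its reads were taken from the transcript without *BIVM*. The median term of the 10 members was 0.09, beside 0.14 over all genes.

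After DRB removal, polymerases move into genes, so the 40 over 10 min comparison asks which genes had gained nascent RNA. No member passed with edgeR, where 0.517% of all genes did. At an unadjusted p under 0.05 were 2 of 10 members and 21.9% of all genes. DESeq2, which called 9.16% of all genes, called both of these members and limma-voom neither. *RPA2* had log2 ratios of 1.59, 1.37, 1.85 and 0.83 (WT without UV, WT with UV, KD without UV, KD with UV) and a fitted value of 1.35 ± 0.39 (edgeR adjusted p = 0.0779). *XPA* had ratios of 1.04, 0.88, 1.34 and 1.28, with a fitted value of 1.14 ± 0.33 (edgeR adjusted p = 0.0779). With the table order as a term, which gives each cell and UV condition its own level and so pairs its 10 and 40 min libraries, both passed (edgeR adjusted p = 0.00320 for *RPA2* and 0.00540 for *XPA*), in a fit that called 26.2% of all genes. *RPA3* had the most negative fitted value, −0.33 ± 0.33, of which WT without UV gave −1.20 and the other 3 pairs −0.17 to 0.00. *ERCC1* and *RPA1* were higher at 40 min in 4 of 4 pairs, with fitted values of 0.50 ± 0.39 and 0.44 ± 0.31. The members' median was 0.33, and over all genes it was −0.09.

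**Figure D3:**
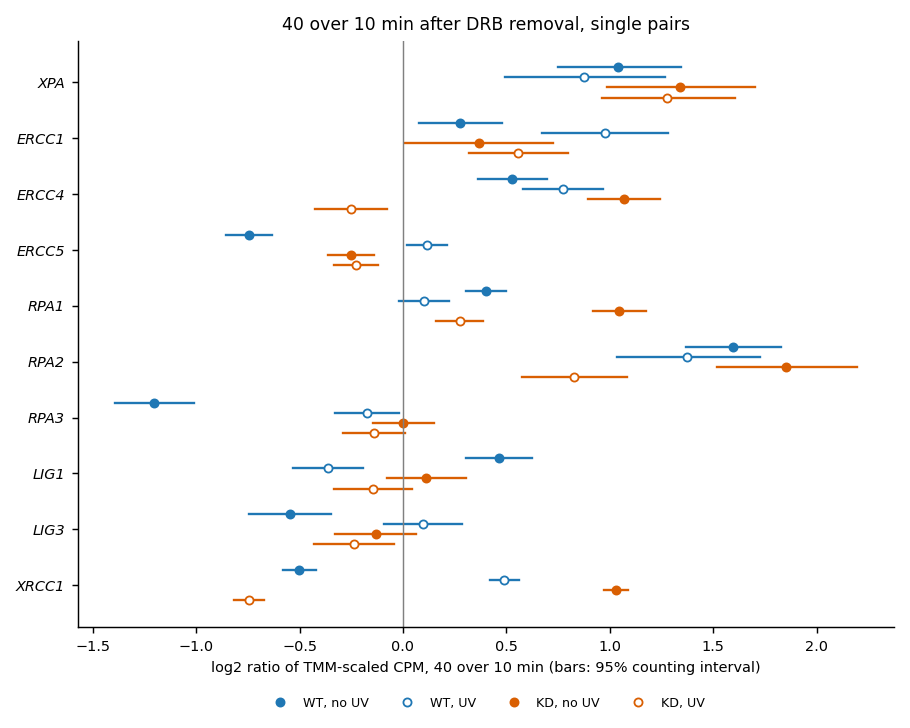
Log2 ratio of 40 over 10 min for each gene within each cell and UV condition (points, with bars for the 95% counting interval); blue is WT, orange KD, filled without UV and open with UV. *XPA* and *RPA2* lie right of 0 in all 4 pairs, and *XRCC1* runs from −0.74 to 1.03.

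Averaged over cells and times, UV moved no member past the threshold (0% of all genes called, 1.69% of all genes and 0 members at an unadjusted p under 0.05, 0 members by DESeq2 or limma-voom). Fitted values ran from −0.33 ± 0.40 for *RPA2* to 0.35 ± 0.30 for *ERCC5*. Since levels are scaled within a library, a fall of all genes alike would not show. In WT alone, *RPA2* had UV over no UV ratios of −1.12 and −1.34 and *ERCC1* −1.31 and −0.61 at 10 and 40 min. Their fitted values were −1.23 ± 0.33 and −0.94 ± 0.32 (edgeR adjusted p = 0.121 for both), with 0.231% of all genes called, 0.0112% as lower. Under an unadjusted p of 0.05 were 4 of 10 members, these 2 and *XPA* at −0.71 ± 0.32 with negative values and *RPA3* with a positive one of 0.79 ± 0.35, and 29.9% of all genes. DESeq2, with 16% of all genes called, called *ERCC1* and *RPA2*, and limma-voom no member. In KD the direction was opposite, with *ERCC1* at 0.98 and 1.17 and a fitted value of 1.07 ± 0.32 (edgeR adjusted p = 0.107, 0% of all genes called, 17.1% of all genes and 1 of 10 members under an unadjusted p of 0.05, no member by DESeq2 or limma-voom). *LIG1* and *LIG3*, the sealing enzymes, had fitted values from −0.14 to 0.42 in both cells. Within each cell the UV and no UV libraries differ in table order, and the orders switch between WT and KD. The values within a cell, and their opposite direction, cannot be told apart from the orders.

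Averaged over UV and time, KD against WT gave no member past the threshold either (0% of all genes called, 0.467% of all genes and 0 members at an unadjusted p under 0.05, 0 members by DESeq2 or limma-voom). *LIG1* was lower in the KD library of all 4 pairs, with log2 ratios of −0.57 to −0.22 and a fitted value of −0.38 ± 0.29. *XRCC1* at 0.56 ± 0.40 and *RPA3* at 0.50 ± 0.33 were the highest values and *ERCC1* at −0.47 ± 0.42 the lowest. Neither the UV by time nor the KD by time term called a member (0% of all genes in both, 2.65% and 0.0619% of all genes but 0 members at an unadjusted p under 0.05, 0 members by DESeq2 or limma-voom).

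Where the tables hold a second, nested transcript of a gene, the difference of the counts shows where along the gene the reads lie. The first 13.1 kb of *ERCC4* held 71 reads at 10 min and 468 at 40 min in WT without UV, 40 and 134 in WT with UV, 48 and 138 in KD without UV, and 79 and 195 in KD with UV. Their log2 ratios of 40 over 10 min, after scaling, were 1.73, 1.51, 1.64 and 1.09, with counting intervals above 0 in all 4 pairs. The remaining 19.1 kb gave 0.05, 0.64, 0.97 and −0.67, so the gain at 40 min was even over conditions in the first part of the gene and uneven in the rest. KD over WT in the first part followed the pattern of *ERCC1* and *RPA2*, at −0.84 and −0.93 without UV and 0.92 and 0.50 with UV, which the value for the whole gene did not show. At 10 min the 3′ part already held 295 to 480 reads, 11.3 to 25.4 times the background density.

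In 7 of 8 libraries 1 stretch of *LIG3* held more reads than the longer part before it. The first 13.9 kb held 57 and 188 reads in WT without UV at 10 and 40 min, 36 and 77 in WT with UV, 61 and 55 in KD without UV, and 45 and 122 in KD with UV. A stretch of 8.71 kb after it held 207 and 169, 324 and 367, 335 and 281, and 293 and 233 reads in the same order, 34.5 to 76.4% of the reads of the gene, with the lowest share in WT without UV at 40 min, where the first part held more. The first part had 40 over 10 min log2 ratios of 0.73, 0.87, −0.03 and 1.22, which the level of the whole gene did not show. In *ERCC5* the first 37.7 kb, most of it in *BIVM*, held 862 and 741 reads in WT without UV and 1220 and 1435 in WT with UV. The 31.2 kb after it, which lie outside *BIVM*, held 343 and 690, 309 and 512, 380 and 398, and 404 and 566 reads over the 4 conditions. Taken from that transcript, *ERCC5* had a fitted 40 over 10 min value of 0.24 ± 0.28, against −0.26 ± 0.30 over the whole span.

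In *ERCC1* the pattern was alike along the gene: its inner transcript of 10.1 kb gave KD to WT values of −1.52, −1.502, 1.00 and 0.22 in the pairs without UV and then with UV (10 min before 40 min in each), and the rest of the span (6.10 kb at the 3′ end with 0.799 kb at the 5′ end) −1.54, −1.37, 0.61 and 0.46. In *RPA2* the outermost 0.611 kb, of which 0.549 kb is at the 3′ end, held 9.4 to 49.7% of the reads. With its shorter transcript the *RPA2* term of KD by UV was 1.33 and did not pass (edgeR adjusted p = 0.0899), whereas its time value was 1.87 and passed (edgeR adjusted p = 0.0264).

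**Figure D4:**
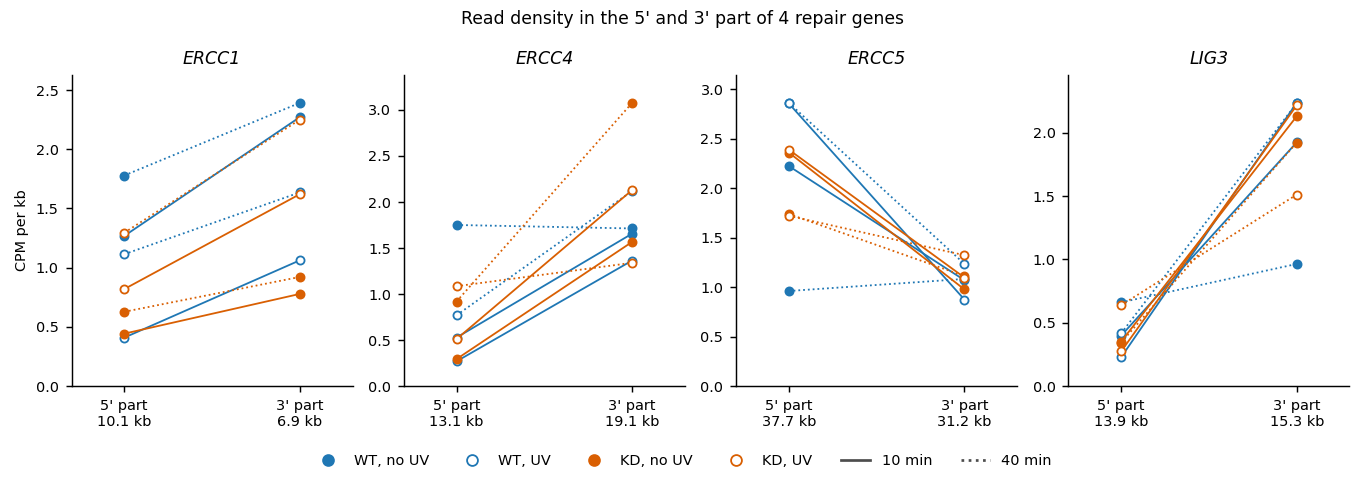
CPM per kb in the 5′ and 3′ part of 4 genes, 1 line per library (solid at 10 min, dotted at 40 min; blue WT, orange KD; filled without UV, open with UV). For *ERCC1* the 3′ part includes 0.799 kb at the 5′ end. In *ERCC4* the 10 min lines start low at the 5′ part and are higher at the 3′ part, and in *ERCC5* the first part, most of it in *BIVM*, lies above the second in 7 of 8 libraries.

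Profiles over the 8 libraries fell into unlike sets. Of the 45 pairs of members, *ERCC5* with *LIG3* had the highest Pearson r of log2 CPM, 0.96, followed by *XPA* with *RPA2* at 0.94, *RPA1* with *RPA2* at 0.90 and *RPA3* with *LIG3* at 0.88. The lowest was −0.76, for *RPA2* with *LIG3*. The *ERCC5* profile is that of the whole span. Its first 37.7 kb, most of it in *BIVM*, held 51.8 to 79.8% of the reads, and r without that part was not tested. Libraries share depth and background across genes: with the log2 ratio of active genes to background, r was 0.96 for *RPA2*, 0.88 for *XPA*, 0.87 for *RPA1* and 0.82 for *ERCC1*, and −0.87 for *LIG3*, −0.82 for *ERCC5* and −0.81 for *RPA3* (n = 8 libraries each). The part of that ratio in the members' profiles was not tested beyond the subtraction above.

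The members also differ in the sequence that UV would meet. UV joins neighbouring pyrimidines, foremost TT. The *RPA3* span had 132.5 TT per kb on the transcribed strand, at the 99.8th percentile of all genes tested, and 37.2% GC. *XRCC1* had 58.2 TT per kb and 50.7% GC, *LIG1* 60.5 and *ERCC1* 61.8 TT per kb, and *ERCC4* 99.3. The median of all genes tested was 79.4 TT per kb.

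Other genes of the pathway were counted for the same contrasts. In the KD by UV term, 2 of 15 repair synthesis genes passed (edgeR adjusted p = 0.0444 for both). They were *PCNA*, the sliding clamp, at 1.67 ± 0.47 and *POLD4*, the small subunit of polymerase delta, at 2.84 ± 0.81. *POLD4* rests on few reads, for it read only 0.523 to 4.87 CPM, with 0.963 and 0.523 CPM in KD without UV. Of 20 upstream genes 3 passed, among them the damage sensor *DDB2* at 1.504 ± 0.43 and *CETN2*, a partner of the sensor XPC, at 1.67 ± 0.50. Of 7 partners in single-strand break repair 3 passed, among them *APTX*, which clears failed ligation ends, at 2.45 ± 0.49 and *PARP1*, the break sensor, at 1.83 ± 0.47, and of 6 other partners of ERCC1 and RPA, *MUS81*, a nuclease of the XPF family, at 1.78 ± 0.48. All 9 terms were positive, as in *ERCC1* and *RPA2*, where 5.94% of all genes had a positive term that passed and 4.39% a negative one.

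In KD over WT without UV, 2, 4, 3 and 1 genes of these lists were lower and only *APLF*, a break repair factor, was higher, at 1.32 ± 0.37, where 6.3% of all genes were lower and 6.97% higher. *PARP1* fell by 1.43 ± 0.33 and *DDB1*, the partner of DDB2, fell by 1.20 ± 0.31. The median was −0.74 for repair synthesis and −0.53 for the upstream genes, beside −0.15 for the 10 members and −0.05 for all genes. From 10 to 40 min *CDK7*, the kinase of TFIIH, rose by 2.13 ± 0.38 and *POLB*, the polymerase of base excision repair, by 1.74 ± 0.35 (edgeR adjusted p = 0.0447 and 0.0479), and no other gene of the 4 lists was called, where 0.517% of all genes were.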

How the data were processed

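GRO-seq libraries (8, with 1 per condition) were analysed. Per the submitters' processing notes, the authors used BWA 0.5.9 and SAMtools and the build hg38; they deposited raw counts of reads per transcript, with no normalization. The counter was not given in the sources used here, nor was an annotation. A gene stands for its transcript with the largest span.

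Counts were tested with edgeR 4.0.16 (R 4.3.3) by the quasi-likelihood F-test, with TMM factors over all genes, then filterByExpr (minimum count 10, minimum total 15; 17782 genes), and Benjamini-Hochberg adjustment over all genes, called under 0.05. Cell, UV and time were additive terms (4 residual degrees of freedom), and each interaction was added singly (3). KD over WT within a UV state, and UV within a cell, come from the KD by UV fit. The SE of an edgeR value was derived from its test, as the unsigned log2 value divided by the square root of F. With no repeats, p-values rest on the spread left between libraries, and whether these were grown as separate cultures is unknown. Ratios of single pairs carry exact 95% intervals that cover counting error only. Scripts were tested on simulated data. The planned background, olfactory receptor genes, held 1 gene in these tables, so families GABR, GRIK, GRIN, CYP2, CYP3A, UGT2 and DEFB were used instead, a choice made after seeing the data. All 10 members are named by rule; other list genes only where called, up to 3 per list and contrast by smallest p, and some that were called are not reported here. Members and lists were chosen with earlier results of these data known. Alternatives were RLE factors, library totals, TMM on genes of 1 to 10 kb, no filter, DESeq2 1.42.0, limma-voom (limma 3.58.1), the smallest transcript, table order as a term and each library left out; added after seeing the data were background subtraction, TMM after the filter, *ERCC5* without *BIVM* and finer stretches of *LIG3*, *ERCC1* and *RPA2*.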

Additional observations from a re-analysis of the deposited data

Results flagged for a closer look

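Among the 10 genes, KD over WT differed with and without UV by a test of the difference itself for *ERCC1*, where the log2 term was 2.02 ± 0.45 (SE, edgeR adjusted p = 0.0393), and for *RPA2*, where it was 1.80 ± 0.47 (edgeR adjusted p = 0.0411). Both genes were lower in KD without UV and higher in KD with UV at 10 and at 40 min. In both the 2 table orders run with the term and cannot be told apart from it.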

How the results depend on the processing

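Of the 10 comparisons, 5 called the same number of members under each alternative tried: UV, KD, KD over WT with UV, UV by time and KD by time. From 10 to 40 min no member was called, beside 0.517% of all genes. With DESeq2 (9.16% of all genes) and with table order as a term (26.2%) 2 were called. The smallest transcript of each gene (4.83%) gave 3, *XPA*, *ERCC4* and *RPA2*. Leaving out a library gave 0 to 2. *XPA* and *RPA2* were called without WT UV 40 min (10.8%) or KD no UV 40 min (4.94%). *RPA2* alone was called without KD UV 10 min (5.82%). For KD by UV the 2 calls (10.3% of all genes) became 3 with library totals (16.4%) or DESeq2 (28.3%), where *XRCC1* joined. They became 1, *ERCC1*, with TMM on genes of 1 to 10 kb (23.7%) or the smallest transcript (22.4%). With background subtracted (0.0681%) 0 remained. Leaving out a KD library ended both calls, where nearly all calls over all genes ended too. *RPA3* joined without WT no UV 10 min, where more of all genes were called. For KD over WT without UV the 2 calls (13.3% of all genes) became 4 with RLE factors (27%), library totals (18%) or DESeq2 (28.2%). There *RPA3* and *XRCC1* joined. With the smallest transcript (23.9%) they became 3 (*RPA3* and *XRCC1* joined, *RPA2* lost). TMM on genes of 1 to 10 kb (24.4%) gave 2, with *RPA3* in place of *RPA2*, and background subtraction (0.0124%) gave 0. *RPA3* and *XRCC1* also joined without WT no UV 10 min, WT UV 10 min or WT UV 40 min, where more of all genes were called. No member was called without KD no UV 10 min or KD no UV 40 min, where almost no gene was. UV in WT gave 2 with DESeq2 (16% of all genes). Without WT no UV 10 min, *RPA2* and *RPA3* were called for UV in WT. For UV in KD, *ERCC1* was called without WT no UV 10 min or WT no UV 40 min. In those fits more of all genes were called too. No value of a member with an unadjusted p under 0.05 changed direction: over the alternatives the KD by UV term was 1.71 to 2.33 for *ERCC1* (adjusted p 0.000947 to 0.121) and 1.33 to 2.18 for *RPA2* (0.00584 to 0.181). TMM on genes of 1 to 10 kb moved the median KD by UV term of all genes from 0.14 to −0.19. Leaving library removal aside, the alternatives called 0 to 4650 genes for time (92 as reported), 11 to 5026 for KD by UV (1837), 2 to 5019 for KD over WT without UV (2360), 16 to 56 for KD over WT with UV (23), 24 to 2841 for UV in WT (41) and 0 to 900 for UV in KD (0). Of the KD by UV calls 57.5% were positive, but 31.5% with library totals and 19.6% with TMM on genes of 1 to 10 kb, and of those for KD over WT without UV 52.5% were higher, but 77.3% with that TMM. The labels give no replicate numbers to pair on, and the fit with table order as a term is the one that pairs the 10 and 40 min libraries of each cell and UV condition. The planned subtraction with olfactory receptor genes was not run, since the tables hold 1 of them. At 84 to 483 reads for *XPA* and 94 to 1110 for *RPA2*, counting error alone limits these genes, and the spread between cultures was not measured.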
